A study of Macaca fascicularis with 12 samples.

Results

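The genes described here are 10 that prepare and load peptides for MHC class I molecules: the transporter subunits TAP1 and TAP2, the loading and trimming proteins TAPBP, TAPBPL and ERAP1, the immunoproteasome subunits PSMB8, PSMB9 and PSMB10, and the proteasome activator subunits PSME1 and PSME2. Members were all probe sets (groups of short array probes for 1 transcript) whose single gene symbol in the platform annotation is on this list. There were 15 such probe sets among 52766 that are not controls, and they covered 8 of the 10 genes, out of 14132 genes with a probe set of their own symbol. No probe set was listed for PSMB9 or PSME1, so these are not analysed here. All 10 symbols occur in the Macaca fascicularis gene table of RefSeq, where PSMB9, TAP1, PSMB8 and TAP2 follow each other in that order, with an unnamed locus between TAP1 and PSMB8, and TAP1 overlaps PSMB9.

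Brain RNA came from 3 adult male cynomolgus macaques. In each animal the left striatum received the baculovirus BV-HSVtk, in 4 injections of 10 µL with 1e8 particles each (BV), and the right striatum received Sf9 insect cell medium without virus that had gone through the same purification (mock). Tissue pieces of about 100 mg were taken after 2 days, 2 pieces per hemisphere with 1 array each, which gives 12 arrays, 6 per group. Replicates 1 and 2 are pieces 1 and 2 of animal 1, replicates 3 and 4 those of animal 2, and replicates 5 and 6 those of animal 3. Because the left side alone received virus, the effects of treatment and of hemisphere cannot be told apart. Uninjected tissue was not analysed here.

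Cells cut cytosolic proteins with the proteasome, and interferon makes cells exchange the catalytic subunits of its core for inducible ones, which form the immunoproteasome. The activator cap made of PSME1 and PSME2 docks on the ends of the core. The resulting peptides enter the endoplasmic reticulum through the TAP1 and TAP2 transporter, are trimmed by the aminopeptidase ERAP1, and are placed on class I molecules with the help of tapasin (TAPBP) and the related editor TAPBPR (TAPBPL). In the resting brain class I presentation is low, and interferon raises it in glia and endothelial cells.

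BV tissue had higher values than mock tissue for TAP1, PSMB8, PSMB10 and PSME2 and for a TAP2 probe set that was dim in mock tissue. The brightest TAP2 probe set went the other way, with a difference of -0.25 log2 units, and was higher in BV in 1 of 6 pairs. By brightest probe set TAPBP, TAPBPL and ERAP1 were higher by 0.53, 0.48 and 0.66, and PSMB10 by 0.63. Of the 15 probe sets, 14 had a higher mean in BV tissue, and of the 12 above the intensity filter 11 did, where 46.9% of all tested probe sets did. In 6 of these 12, BV was higher in 6 of 6 replicate pairs, against 3.37% of all tested probe sets, and in 0 was it lower in 6 of 6, against 4.38%. The 11 and the 6 include the TAP2 probe set that reached the filter only through its BV signal, and both probe sets of PSMB10. By brightest probe set, BV was higher in 6 of 6 pairs for 4 of the 8 genes, against 447 of 11143 named genes tested. Adjusted over the 31660 probe sets tested, 0 of the 12 member probe sets passed (limma with animal as a block, 2 residual degrees of freedom, Benjamini-Hochberg adjusted p under 0.05), where 9 of all probe sets, or 0.0284%, passed. At an unadjusted p under 0.05 there were 9 of the 12, all higher in BV and including the TAP2 probe set that reached the filter through its BV signal, against 5.15% of all tested probe sets in that direction and 3.65% in the other. Probe sets of 1 gene measure the same gene and are not separate evidence. Over the 8 genes, each by its brightest probe set, the median difference was 0.65 log2 units, against -0.02 over all tested probe sets. Since whole tissue was measured, more cells of a type and more RNA per cell cannot be told apart.

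Below, signals are quantile-normalized log2 intensities, differences are BV minus mock in log2 units ± the limma standard error (n = 3 animals), and the probe sets of a gene are numbered from brightest to dimmest.

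**Figure D1:**
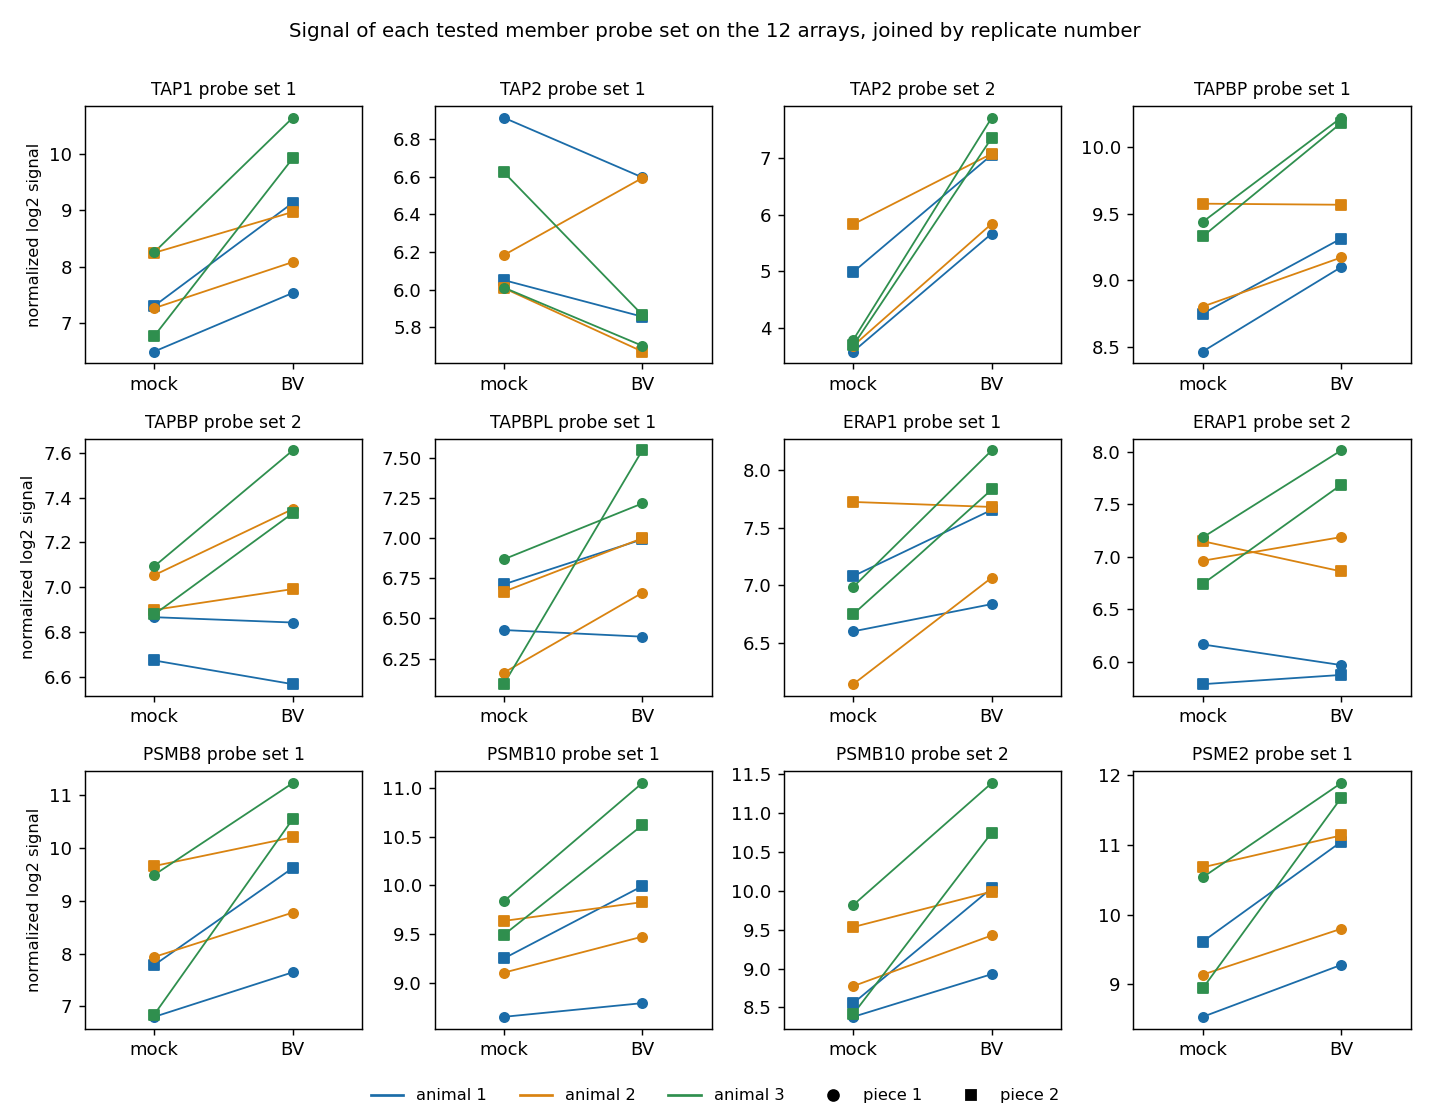
Normalized log2 signal (vertical axis, own scale per panel) of the 12 tested member probe sets in mock and BV tissue; each line joins the arrays of 1 replicate number, colours mark the animals, circles piece 1 and squares piece 2. TAP1, TAP2 probe set 2, PSMB8, both PSMB10 probe sets and PSME2 are higher in BV in all 6 pairs, while TAP2 probe set 1 is higher in BV in 1 of 6.

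TAP1 encodes the transporter subunit that, with TAP2, pumps peptides across the membrane of the endoplasmic reticulum. Its only probe set had mock signals from 6.50 to 8.26 with a median of 7.29, and BV signals from 7.54 to 10.64 with a median of 9.05. The lowest BV array was replicate 1 and the highest replicate 5, and 4 of 6 BV arrays lay above every mock array. In each replicate pair the BV array was higher, by 1.04, 1.83, 0.82, 0.72, 2.38 and 3.15 for numbers 1 to 6. The mean difference was 1.66 ± 0.37, or 3.15-fold (adjusted p = 0.441), the 100th largest of the 31660 tested. Taken by hemisphere, all 3 BV means lay above all 3 mock means, as for 4.71% of tested probe sets.

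The probe sets of TAP2, the other subunit of the transporter, gave differences of opposite sign. Probe set 2 had mock signals from 3.58 to 5.83 with a median of 3.73 and BV signals from 5.66 to 7.72 with a median of 7.07. The groups overlapped through 1 mock array, replicate 4, which was just above BV replicate 1. As deposited, its intensities ran from 6.88 to 40.5 in mock and from 57.2 to 299 in BV tissue. Deposited values of piece 1 and piece 2 arrays were scaled differently. The 40.5 is from a piece 2 array and the 57.2 from a piece 1 array, so this gap is not a separation of like-scaled values. The difference of 2.53 ± 0.41, or 5.78-fold, was the largest among the members and the 17th largest of all (adjusted p = 0.282). Its mean in mock tissue, 4.26, was below the intensity filter of 4.95, so this probe set was tested only because it was bright in BV tissue and had to differ. For that reason its calls under 5 alternatives are given as a description and support nothing. Those were the replicate numbers as the block (0.167% of all probe sets called higher), a piece term (0.111%), duplicateCorrelation (0.237%), animal 2 left out (3.63%) and animal 3 left out (0.221%).

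Probe set 1 of TAP2, the brightest, ran from 6.01 to 6.91 in mock and from 5.67 to 6.60 in BV tissue. It was higher in BV in only 1 of 6 pairs, with a difference of -0.25 ± 0.17 (adjusted p = 0.597). The dim probe set 3, below the filter, had a difference of 0.14. Probe sets 2 and 1 differed by 2.78 ± 1.39 (SD, n = 3 animals), in the same direction in 6 of 6 pairs (exact sign-flip permutation p = 0.25, two-sided, the smallest that 3 animals allow). Probe sequences were not used here, and which of these probe sets follows the TAP2 transcript was not tested.

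Tapasin, encoded by TAPBP, bridges the transporter and empty class I molecules. Its brightest probe set had mock signals from 8.46 to 9.57, median 9.06, and BV signals from 9.10 to 10.22, median 9.44. BV was higher in 5 of 6 pairs, while the pair of replicate 4 was level at -0.01. The difference was 0.53 ± 0.16 (adjusted p = 0.564), smaller than that of TAP1 by 1.12 ± 0.72 (SD, n = 3 animals, TAP1 larger in 6 of 6 pairs, exact permutation p = 0.25, the smallest possible). Probe set 2 had a difference of 0.20 ± 0.17 (adjusted p = 0.638), with BV higher in 4 of 6 pairs.

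The dimmest TAPBP probe set, below the filter and untested, was the only member whose 6 BV arrays all lay above its 6 mock arrays. Among the 12 tested members there were 0 such probe sets, against 0.237% of all tested. Its mock signals ran from 3.22 to 4.00 and its BV signals from 4.39 to 5.74, with a difference of 1.60. All 3 probe sets of tapasin had higher means in BV tissue, with differences from 0.20 to 1.60.

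TAPBPL, which edits the peptides on class I molecules outside the loading complex, had mock signals from 6.09 to 6.87, median 6.55, and BV signals from 6.39 to 7.55, median 7.00. Its difference was 0.48 ± 0.19 (adjusted p = 0.564), and the pair of replicate 1 was level at -0.04. The pair of replicate 6, at 1.46, was the widest, and all 3 BV hemisphere means lay above the mock means.

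ERAP1 cuts peptides to the length that class I molecules hold. The brighter of its probe sets ran from 6.14 to 7.72 in mock, median 6.87, and from 6.84 to 8.17 in BV tissue, median 7.67. BV was higher in 5 of 6 pairs, and the difference was 0.66 ± 0.20 (adjusted p = 0.564), which was 0.40 without mock replicate 3, its lowest array. Probe set 2 had a difference of 0.27 ± 0.23 (adjusted p = 0.65), almost all of it from animal 3, where it was 0.89, against -0.05 in animal 1 and -0.03 in animal 2. In the RefSeq table ERAP1 overlaps CAST, and TAPBPL overlaps CD27 and VAMP1; whether the probes tell these genes apart was not tested.

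PSMB8 replaces PSMB5, the subunit with chymotrypsin-like activity, in the immunoproteasome. Mock signals ran from 6.80 to 9.66 with a median of 7.86, and BV signals from 7.65 to 11.23 with a median of 9.91. The groups overlapped: mock replicates 4 and 5, at 9.66 and 9.49, were higher than BV replicates 1 and 3. Within pairs the BV array was always higher, by 0.84, 1.84, 0.84, 0.54, 1.74 and 3.70. The mean difference was 1.58 ± 0.37, or 3.00-fold (adjusted p = 0.47). The widest pair, number 6, holds the mock array with the highest actin 3' to 5' signal ratio, a sign of RNA degradation, at 2.40 against 1.10 to 1.40 on the others. Without that array the difference of PSMB8 was 1.14 and that of TAP1 1.41.

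PSMB10 replaces PSMB7, the subunit with trypsin-like activity. Both of its probe sets were bright and higher in BV in 6 of 6 pairs. Probe set 1 ran from 8.65 to 9.83 in mock, median 9.37, and from 8.79 to 11.05 in BV tissue, median 9.91, with a difference of 0.63 ± 0.20 (adjusted p = 0.564). Probe set 2 ran from 8.38 to 9.82, median 8.66, and from 8.93 to 11.38, median 10.01, with a difference of 1.17 ± 0.27, or 2.25-fold (adjusted p = 0.459). The latter was wider by 0.54 ± 0.25 (SD, n = 3 animals, 6 of 6 pairs, exact permutation p = 0.25, the smallest possible). The name of probe set 1 carries the suffix that marks probes matching more than 1 transcript.

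PSME2 is the beta subunit of the activator cap, which opens the gate of the core. Its bright probe set had mock signals from 8.54 to 10.68, median 9.38, and BV signals from 9.28 to 11.89, median 11.09. In 4 of 6 BV arrays it lay above every mock array. Pair differences were 0.75, 1.43, 0.66, 0.46, 1.35 and 2.74, and the mean was 1.23 ± 0.27, or 2.35-fold (adjusted p = 0.45). The dim probe set 2, below the filter, had a difference of 0.14.

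**Figure D2:**
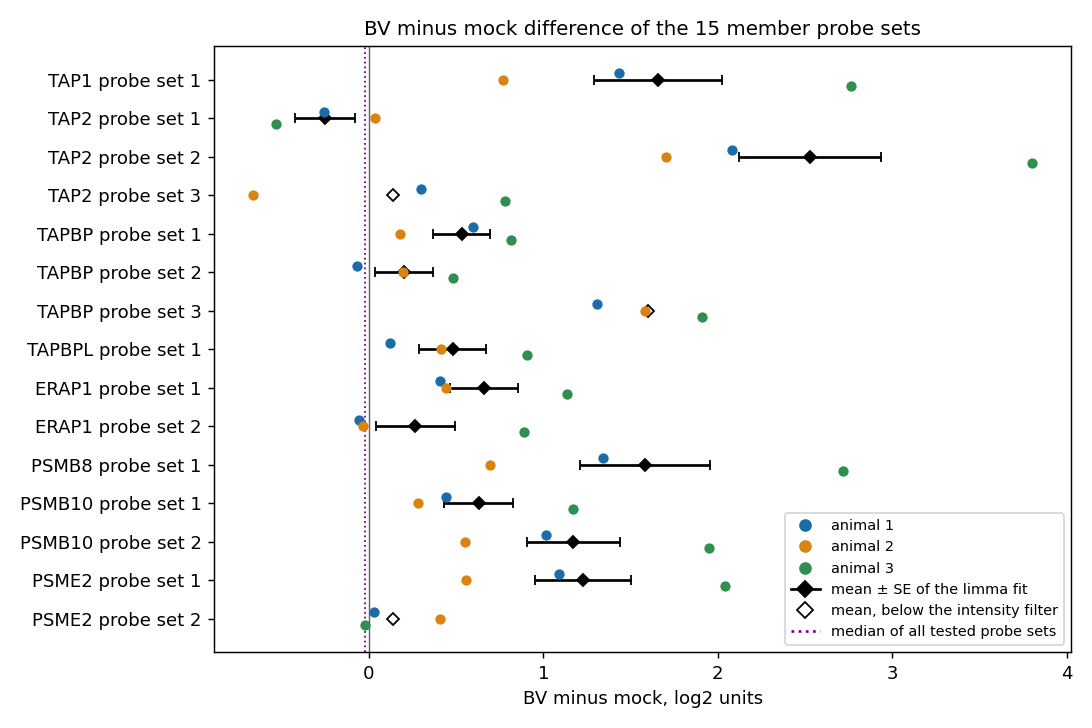
BV minus mock difference in log2 units (horizontal axis) for the 15 member probe sets. Coloured points are the 3 animals, black diamonds with bars are means ± SE of the limma fit, open diamonds are means of probe sets below the filter, and the dotted line is the median of all tested probe sets. Animal 3 is the rightmost point for 13 of the 15 probe sets, and only TAP2 probe set 1 has a mean below 0.

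The constitutive counterparts of the inducible subunits had differences near 0. PSMB5, PSMB6 and PSMB7, the catalytic subunits of the standard core, had differences of -0.02 ± 0.10, 0.00 ± 0.11 and 0.05 ± 0.09 (adjusted p = 0.939, 0.996 and 0.825), and BV was higher in 2, 3 and 3 of 6 pairs. The difference of PSMB8 exceeded that of PSMB5 by 1.60 ± 1.15 (SD, n = 3 animals) in 6 of 6 pairs, and that of PSMB10 exceeded that of PSMB7 by 0.58 ± 0.46 in 5 of 6. PSME3, which forms a separate nuclear activator cap, had -0.07 ± 0.14 (adjusted p = 0.849), and PSME2 exceeded it by 1.30 ± 0.82 in 6 of 6 pairs. For each of the 9 such contrasts of differences computed, the exact sign-flip permutation p was 0.25 (0.25 after adjustment over the 9), the smallest that 3 animals allow, so none could pass.

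**Figure D3:**
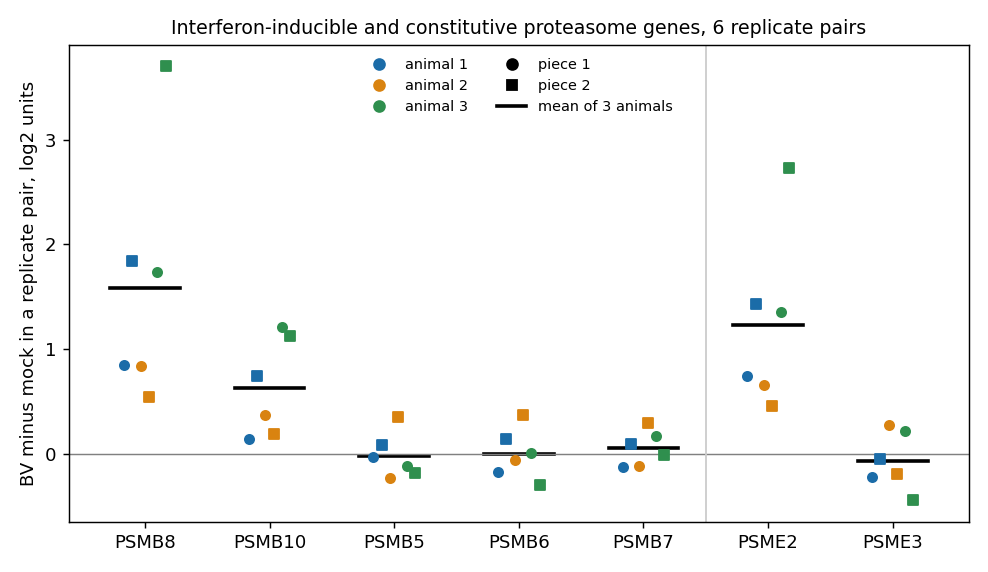
BV minus mock difference of single replicate pairs in log2 units (vertical axis) for inducible (PSMB8, PSMB10, PSME2) and constitutive (PSMB5, PSMB6, PSMB7, PSME3) proteasome genes, by brightest probe set. Points are pairs, coloured by animal with circles for piece 1 and squares for piece 2, and bars are means of 3 animals. All pairs of the inducible genes lie above 0, up to 3.70 for PSMB8, while the constitutive genes scatter around 0.

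By brightest probe set, other proteasome genes had differences from -0.41 to 0.64. Over all their probe sets the range was wider, from -0.68 (PSMB2) to 0.93 (PSMG2). Of 6 other core subunits measured, 5 had higher and 1 lower values, with a median difference of 0.16 and PSMA3, an alpha ring subunit, widest at 0.30 ± 0.12 (adjusted p = 0.564). In the regulatory particle, the cap that recognises ubiquitin, 13 of 14 measured subunits had higher values, with a median of 0.15. Among the 13, PSMC2, PSMD6 and PSMD9 also had probe sets at -0.08, -0.05 and -0.33. The lower subunit, PSMD1, had 0.11 by its other probe set. PSMD11, a lid subunit, stood at 0.64 ± 0.24 (adjusted p = 0.564) and PSMC6, an ATPase of the base, at 0.28 ± 0.16. Among 6 other activator, inhibitor and assembly genes 3 were higher and 3 lower, and the widest difference was that of PSMG1, an assembly chaperone, at -0.41 ± 0.11 (adjusted p = 0.524). By limma 0 genes of these lists passed, with 2 at an unadjusted p under 0.05 in the higher direction (PSMA3 and PSMD11) and 1 in the lower (PSMG1).

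By brightest probe set, array signals of the class I genes MAMU-E, MAMU-I, MAMU-A and MAMU-B stood higher in BV tissue, and those of MAMU-F and B2M were near level. All 6 measured class I genes had higher means, with a median of 0.89. In the limma fit 0 passed, with 4 at an unadjusted p under 0.05. MAMU-E, MAMU-I and MAMU-A, macaque class I heavy chains, had differences of 2.04 ± 0.37 (adjusted p = 0.344), 1.64 ± 0.26 (0.281) and 1.35 ± 0.36 (0.535). MAMU-B had 0.44 ± 0.09, but -0.10 by its other probe set. MAMU-F had 0.08 ± 0.14 (limma adjusted p = 0.805). Probe sets of MAMU-F ran from 0.08 to 1.85 and those of MAMU-I from 0.40 to 1.84. With the replicate block, in which pieces count as independent, MAMU-I passed (limma adjusted p = 0.0395), where 0.174% of all tested probe sets passed. Heavy chain genes are near-identical copies, so their probes may share signal. B2M, the light chain that all class I molecules use, had 0.07 ± 0.08 (adjusted p = 0.704). Its mean log2 signal was 12.4.

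Other loading and trimming genes were divided. By brightest probe set, of 5 measured above the filter 3 had higher and 2 lower values, with a median of 0.00. The widest were PDIA3, a thiol oxidoreductase of the loading complex, at 0.42 ± 0.20 (limma adjusted p = 0.569) and TPP2, a cytosolic peptidase, at -0.29 ± 0.14 (0.569). Both had probe sets of either sign, from -0.21 to 0.58 for PDIA3 and from -0.29 to 0.30 for TPP2. Next came UGGT1, a glucosyltransferase that returns unfit class I molecules for reloading, at 0.15 ± 0.15, and the chaperone calnexin (CANX) at -0.03 ± 0.13. ERAP2, a partner of ERAP1, was below the filter and had a difference of 0.83 with BV higher in 6 of 6 pairs. By its other probe set the difference was 0.04.

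Regulators of these genes were also compared. Of 12 measured, 10 had higher and 2 lower values, with a median of 0.30, and 0 passed in the limma fit, with 3 at an unadjusted p under 0.05. NLRC5, the transactivator of class I genes and of TAP1 and PSMB9, had 1.28 ± 0.35 (adjusted p = 0.538). IRF1, an interferon-induced activator of the same promoters, had 1.00 ± 0.40 (adjusted p = 0.564), with 0.68 in animal 1, 0.06 in animal 2 and 2.24 in animal 3. The interferon receptor chain IFNAR2 had 0.74 ± 0.25, but 0.19 by its other probe set, and the related factor IRF2 had 0.49 ± 0.27.

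Differences between the animals were wide. Over the 8 genes the median difference was 0.52 in animal 1, 0.43 in animal 2 and 1.15 in animal 3. TAP1 had 1.43, 0.77 and 2.76, PSMB8 had 1.34, 0.69 and 2.72, and PSME2 had 1.09, 0.56 and 2.04, the same order in each. In animal 3 the pair of replicate 6 holds the mock array with the high actin ratio. It was wider than the pair of replicate 5 for PSMB8 (3.70 against 1.74), PSME2 (2.74 against 1.35) and TAP1 (3.15 against 2.38). So it was for TAPBPL, PSMB10 probe set 2, TAPBP probe set 1 and ERAP1 probe set 2. It was narrower for TAP2 probe set 2 (3.67 against 3.93), PSMB10 probe set 1 (1.13 against 1.22), ERAP1 probe set 1 (1.09 against 1.19) and TAPBP probe set 2 (0.45 against 0.52). The pair of replicate 5 of PSMB8 lay below the pair of replicate 2 of animal 1, at 1.84, and the part of RNA quality in the order of the animals was not tested. Without animal 3 the means of TAP1, PSMB8 and PSME2 were 1.10, 1.01 and 0.82, and that of PSMB10 probe set 1 was 0.36. When animal 2 was left out, 6 of the 12 tested member probe sets passed, those of TAP1, PSMB8, PSMB10 and PSME2 and probe set 2 of TAP2 (described above), in a fit that called 3.63% of all probe sets higher. Whether the difference varied with the animal was tested on single arrays (limma, F test of the interaction), with an adjusted p of 1.00 for each tested member, with 0 calls over all probe sets and 2.32% at an unadjusted p under 0.05. The smallest unadjusted p of this test among members was 0.0575, for ERAP1 probe set 2. The pieces of a hemisphere are the only spread in it, so it is about these hemispheres.

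The pieces of 1 hemisphere also differed. PSMB8 was 1.98 higher in piece 2 than in piece 1 of the BV hemisphere of animal 1, and 2.64 lower in piece 2 than in piece 1 of the mock hemisphere of animal 3 (a piece 2 minus piece 1 value of -2.64). In 3 of 6 hemispheres this gap was wider than the mean BV minus mock difference of the gene, for PSME2 in 4 of 6, for each PSMB10 probe set in 1 of 6, and for TAP1 and TAP2 probe set 2 in 0 of 6. For TAP1, PSMB8 and PSME2 alike, piece 2 was higher on both sides of animals 1 and 2, and piece 1 on both sides of animal 3. Piece numbers are also array sets that were scaled differently before deposit, with medians from 50.2 to 62.8 in piece 1 arrays and from 25.4 to 32.7 in piece 2 arrays. All 3 BV arrays lay above all 3 mock arrays for 1 of the 12 tested member probe sets in piece 1 (5.12% of all tested probe sets) and for 6 of the 12 in piece 2 (4.96%). The 1 in piece 1 was TAP2 probe set 2, which reached the filter only through its BV signal and is also among the 6 in piece 2. By brightest probe set it was 0 of the 8 genes in piece 1 and 4 in piece 2. For TAP1, PSMB8 and PSME2 each set alone gave the same direction: TAP1 had 1.41 in piece 1 arrays and 1.90 in piece 2 arrays, PSMB8 1.16 and 1.99, and PSME2 0.96 and 1.41.

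Mock tissue was not uniform. Mock replicates 4 and 5 held the top 2 values among the mock arrays for 9 of the 12 tested member probe sets each, and mock replicate 1 the lowest for 7. Among BV arrays, replicate 5 was the highest for 10 and replicate 1 the lowest for 9. PSMB8 and PSME2 were most alike over the 12 arrays, with r = 0.99 after centring on the mean of each piece number, and TAP1 had r = 0.98 with PSME2 and 0.96 with PSMB8. TAP2 probe set 1 had r from -0.87 to -0.64 with the other 7 genes. These correlations are descriptions over arrays that share animals and treatment.

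**Figure D4:**
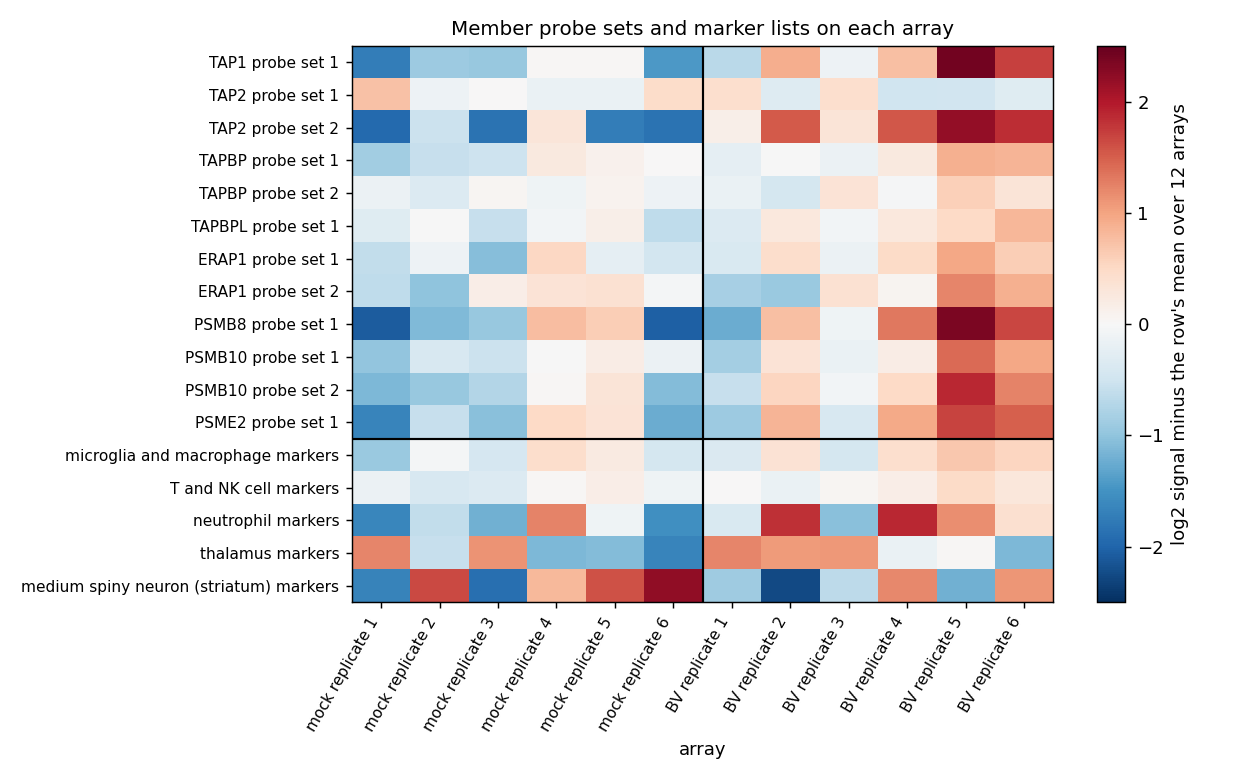
Log2 signal of the 12 tested member probe sets and mean log2 signal of 5 marker lists on each array, shown as the difference from the row's mean over 12 arrays (colour scale, log2 units), mock arrays on the left and BV arrays on the right. BV replicates 5 and 6 are high for most member rows, and mock replicates 4 and 5 lie above the other mock arrays for PSMB8 and PSME2.

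Markers of other cell types differed between the arrays too. The 13 microglia and macrophage markers had a mean log2 signal from 7.95 to 9.31 in mock and from 8.44 to 9.55 in BV tissue, higher in BV in 4 of 6 pairs. Their summed linear signal ran from 4627 to 12833 in mock and from 7006 to 20023 in BV tissue. Mock replicate 4, high for the members, was the highest mock array of this list at 9.31, and mock replicate 1 the lowest at 7.95. Of the 13 genes 10 had higher and 3 lower values, with a median difference of 0.27 (0 passed). LYZ had 1.47, higher in 6 of 6 pairs. CD68 had 1.41, higher in 5 of 6 pairs and with 0.09 in animal 2, but -0.17 by its other probe set. The complement genes C1QA, C1QB and C1QC had 0.58, 0.95 and 0.85, each higher in 6 of 6 pairs, with 0.14 for the other probe set of C1QA. TMEM119 and CSF1R had 0.18 and 0.05. The 3 lower genes were P2RY12, CX3CR1 and ITGAM, at -0.10, -0.33 and -0.62.

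The T and NK cell list, with 7 of 16 genes above the filter, had mean signals from 6.62 to 7.20 in mock and from 6.87 to 7.51 in BV tissue and was higher in 6 of 6 pairs. Its summed signal ran from 1172 to 2033 and from 1489 to 2120. Of the 7 genes 5 had higher and 2 lower values, with a median difference of 0.04 (0 passed). GZMB and NKG7, genes of cytotoxic cells, had differences of 1.08 and 0.69, each higher in 5 of 6 pairs. By brightest probe set GZMA had -0.0007, GNLY -0.07, KLRD1 0.19 and CD4 0.04, while the other probe set of GNLY had 1.24. CD8A, a marker of cytotoxic T cells, had 0.00 by its brightest probe set and 0.785 by its other, and CD8B was below the filter. Neutrophil markers, 5 genes, had means from 4.79 to 7.64 in mock and from 5.36 to 8.30 in BV tissue, higher in BV in 6 of 6 pairs. Of the single genes only LCN2 was, at 2.07, with another probe set at -0.25. S100A9, FPR1, CSF3R and S100A8 had 1.34, 1.08, 1.08 and 0.82. In replicate 3 S100A8 and FPR1 had -0.99 and -0.26. The mean of the endothelial list, 7 genes, ran from 6.87 to 7.58 in mock and from 6.98 to 7.92 in BV tissue. It was higher in 6 of 6 pairs, but near level in replicates 3 and 5, at 0.004 and 0.01. The mean of the astrocyte list, 6 genes, was lower in BV in 6 of 6 pairs, but near level in replicate 5, at -0.0068. Of the 6 genes 2 had higher and 4 lower values, with a median difference of -0.09 (0 passed). SLC1A2 was widest at -0.998, and S100B had -0.276, both lower in 6 of 6 pairs. FGFR3 had -0.179, SLC1A3 -0.002, GFAP 0.048 and ALDH1L1 0.198. The part of these cell types in the differences of the members was not tested.

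The tissue pieces differed in region as well. Markers of striatal medium spiny neurons, 7 genes, had mean log2 signals from 6.16 to 10.25 in mock and from 5.78 to 9.25 in BV tissue, and 9 thalamic markers from 6.48 to 9.34 and from 7.00 to 9.34. The striatal markers were higher in BV in 3 pairs, by 0.79, 1.23 and 0.39 in replicates 1, 3 and 4, where TAP1 differed by 1.04, 0.82 and 0.72. They were lower in BV in the other 3, with differences of -3.91, -2.79 and -1.10 in replicates 2, 5 and 6, where TAP1 differed by 1.83, 2.38 and 3.15. The 3 widest differences of TAP1 thus fell in the 3 pairs with lower striatal marker signal in BV, and the same held for PSME2, at 0.75, 0.66 and 0.46 against 1.43, 1.35 and 2.74, and for PSMB8, at 0.84, 0.84 and 0.54 against 1.84, 1.74 and 3.70. Thalamic markers differed by -0.005, 1.63, -0.04, 0.95, 1.10 and 0.52 in replicates 1 to 6, which was another order than that of TAP1. In replicate 4, at 0.95, TAP1 had its smallest difference, 0.72, and in replicate 6, at 0.52, its largest, 3.15. All 6 pairs of TAP1, PSME2 and PSMB8 were above 0, and the part of region in the differences was not tested.

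By the likeness rule, the 5 named genes outside the list whose signal followed the mean of the standardised member values most closely over the 12 arrays, after centring within piece numbers, were PARP14, an ADP-ribosyltransferase (r = 0.983), NLRC5 (0.976), TYMP, thymidine phosphorylase (0.975), UNC93B1, which escorts nucleic acid sensing Toll-like receptors to endosomes (0.974), and PLA2G4C, a phospholipase (0.973). Each was higher in BV in 6 of 6 pairs, with differences of 1.30 ± 0.29, 1.28 ± 0.35, 1.34 ± 0.41, 1.28 ± 0.22 and 0.97 ± 0.25, and adjusted p from 0.323 to 0.564. The arrays share animals and treatment, and the likeness is a description.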

How the data were processed

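The authors deposited linear intensities of probe sets for each array; GCOS 1.4.0.036 is named in the submitters' processing notes. How probes were summarised and scaled is not given in the sources used here. Gene symbols came from a rhesus macaque platform annotation, in which 24969 of 52865 probe sets have 1 symbol. Cynomolgus RNA may bind such probes less well.

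The 12 arrays were quantile-normalized and converted to log2(signal + 3.49); 3.49 is the 10th percentile of the deposited table, and differences of dim probe sets are understated. After removal of 99 controls, 31660 probe sets remained whose mean log2 signal reached the 40th percentile (4.95). The pieces of a hemisphere were averaged, and limma 3.58.1 under R 4.3.3 was fitted with animal as a block, treatment as a term, a variance trend in eBayes and two-sided p-values adjusted by Benjamini-Hochberg (threshold 0.05). The script was tested on simulated data. Animals pair the hemispheres by the protocol; deviations from group means correlated at r = 0.622, 0.156 and 0.361 in animals 1, 2 and 3, and from 0.284 to 0.623 for the 6 replicate numbers. Pairs of arrays with identical values numbered 0. Precision is limited by the 3 animals, and p-values of the main fit measure the spread between them. In fits on single arrays the spread between pieces enters too.

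The members, gene lists, tests and alternatives were chosen with earlier results of these data known. The text names all 10 members and every probe set of them, from each other list up to 4 genes of widest difference and a fixed panel (PSMB5, PSMB6, PSMB7, PSME3, NLRC5, IRF1 and B2M, with 1 further item not reported here), and the 5 genes most alike. Single genes of the cell type marker lists, ERAP2, MAMU-F, PSMD1, PSMD6 and PSMD9 were named after their values were seen. Alternatives covered normalization, pseudocount, filter, variance trend, block, array set, animals and single arrays.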

Additional observations from a re-analysis of the deposited data

Results flagged for a closer look

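Probe set 2 of TAPBP, the tapasin gene, differed in sign between the animals: both pairs were higher in BV tissue in animals 2 and 3, with mean differences of 0.19 and 0.48, and both lower in animal 1, with a mean of -0.06. The animal by treatment interaction of this probe set had an unadjusted p of 0.347 in limma. No array stood apart from the others of its group for any of the 15 member probe sets (30 groups of 6 arrays compared by Dixon's ratio at the 95% level; by chance about 1 in 20 groups would stand apart).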

How the results depend on the processing

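The median difference of the 8 genes kept its direction in all alternatives run. It was 0.79 with the mean of all probe sets of a gene and 0.95 with TAP2 represented by its other tested probe set (chosen after both values were seen), and from 0.47 to 0.83 without a single array. Of the 12 tested member probe sets 0 passed in the main fit. There was 1 (TAP2 probe set 2) with the replicate block on single arrays, 1 with a piece term, 1 with duplicateCorrelation and 1 without animal 3, and 6 without animal 2; TAP2 probe set 2, among the calls in each, reached the filter only through its BV signal. Leaving out single arrays gave 0 to 0 calls (4 to 10 at an unadjusted p under 0.05). The replicate block, in which pieces count as independent, changed no other call of a member. The count over all probe sets, 9, was 1 with no normalization, 5 with no filter, 1 with no variance trend, 30 with the animal block on single arrays, 55 with the replicate block, 4 with no animal block, 38 with a piece term, 85 with duplicateCorrelation, 16 in piece 1 arrays, 0 in piece 2 arrays (1769 at an unadjusted p under 0.05), 1 without animal 1, 1843 without animal 2 and 73 without animal 3. Leaving out single arrays it ran from 0 to 42: for BV arrays, 15 when replicate 3 and 1 when replicate 6 was dropped, and for mock arrays, 1 when replicate 3, 28 when replicate 4, 0 when replicate 5 (with 1709 under 0.05 unadjusted) and 42 when replicate 6 was dropped. ERAP1 probe set 2 turned to -0.0425 without animal 3. Among probe sets below the filter, TAP2 probe set 3 was -0.236 in piece 1 arrays, -0.181 without animal 3, and below 0 also with no normalization and without BV or mock replicate 4, and PSME2 probe set 2 was -0.037 without mock replicate 3. Without animal 3 the differences of TAPBP probe set 2 and TAPBPL were 0.065 and 0.268. With fewer animals the fit has 1 residual degree of freedom; the causes of these changes were not tested. The interaction gave 0 calls in all 6 alternatives run (169 to 1581 probe sets at an unadjusted p under 0.05). Scaling moved the median of all tested probe sets to between -0.07 and 0.07.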
